A study of Mus musculus with 6 samples.

Results

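Cell junction, cadherin and polarity genes were followed here in 4T1, a mouse mammary carcinoma line that stands for triple-negative breast cancer, the class without hormone receptors or amplified HER2. They were chosen by symbol alone: claudins, occludin and F11r, the Tjp and Magi scaffolds with Patj, the Pard and Dlg genes, cadherins, alpha-, beta- and delta-catenins, desmosome genes and connexins. 44 of the 12656 genes in the table matched, and 43 of them passed the filter on low values and were tested. The exception was Cldn6, at 0.589 to 0.697 CPM, which is reads scaled to library size, in DMSO and 0.482 to 0.671 in LP-184. Gjb2, another epithelial connexin, was not analysed here.

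The study compared 3 libraries of cells given the solvent DMSO with 3 libraries of cells given LP-184, a DNA-damaging drug, for 48 h. All 6 came from the same line with no genetic change named in the labels, and polyadenylated RNA was sequenced. The labels give no time for DMSO and no dose for LP-184, and do not say whether replicates were separate cultures. The p-values therefore take their error from differences among libraries that could be technical repeats.

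Epithelial cells hold to each other through several kinds of junction. Tight junctions seal the gap between neighbours with claudins and occludin, which scaffold proteins tie to the cell cortex. Adherens junctions join E-cadherin across cells and link it through catenins to actin. Desmosomes join desmosomal cadherins to keratin filaments through plakoglobin, plakophilins and desmoplakin. Gap junctions are channels of connexins. The Par, Crumbs and Scribble groups of proteins mark the apical and lateral sides of the cell and position these junctions. In carcinomas, loss of E-cadherin is a known feature of the epithelial-mesenchymal switch.

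The 6 libraries held 18864368 to 22471753 reads over the genes of the table. Mammary epithelial markers were present in both groups, with 7 of 8 in the table and a summed level of 4615 to 4632 CPM in DMSO and 3176 to 3200 in LP-184. Among them Krt7 fell by 1.45 on the log2 scale and Krt14 rose by 1.46, while Epcam rose by 0.36. Markers of other cells were sparse: 0 of 5 endothelial genes, 1 of 6 fibroblast genes (Pdgfra, summed level 6.37 to 7.62 CPM against 8.12 to 10.3) and 2 of 5 leukocyte genes (11.2 to 12.3 against 29.0 to 35.1 CPM) were in the table. Of the leukocyte genes, Cd68 went from a mean of 10.2 to 31.3 CPM and Lyz2 from 1.62 to 0 CPM. The part of these shifts in the junction gene values was not tested, and in bulk RNA fewer cells of a type and less RNA per cell cannot be told apart.

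In LP-184 against DMSO, 39 of the 43 genes tested passed a Benjamini-Hochberg adjusted p of 0.05 (limma), beside 78.3% of all 11931 genes tested. Of these, 18 were higher and 21 lower, which are 41.9% and 48.8% of the set, beside 38.3% and 40.0% of all genes. 8 genes rose and 8 fell by 2-fold or more, 18.6% each, beside 8.08% and 12.6% of all genes. The ranges of the 2 groups were separate for 40 of the 43 genes, and for 79.1% of all genes. The median log2 fold change was -0.08, against -0.01 over all genes. The shares that passed the threshold in each direction were near the background, whereas the share that rose by 2-fold or more was above it. Their difference from other genes was not tested.

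**Figure D1:**
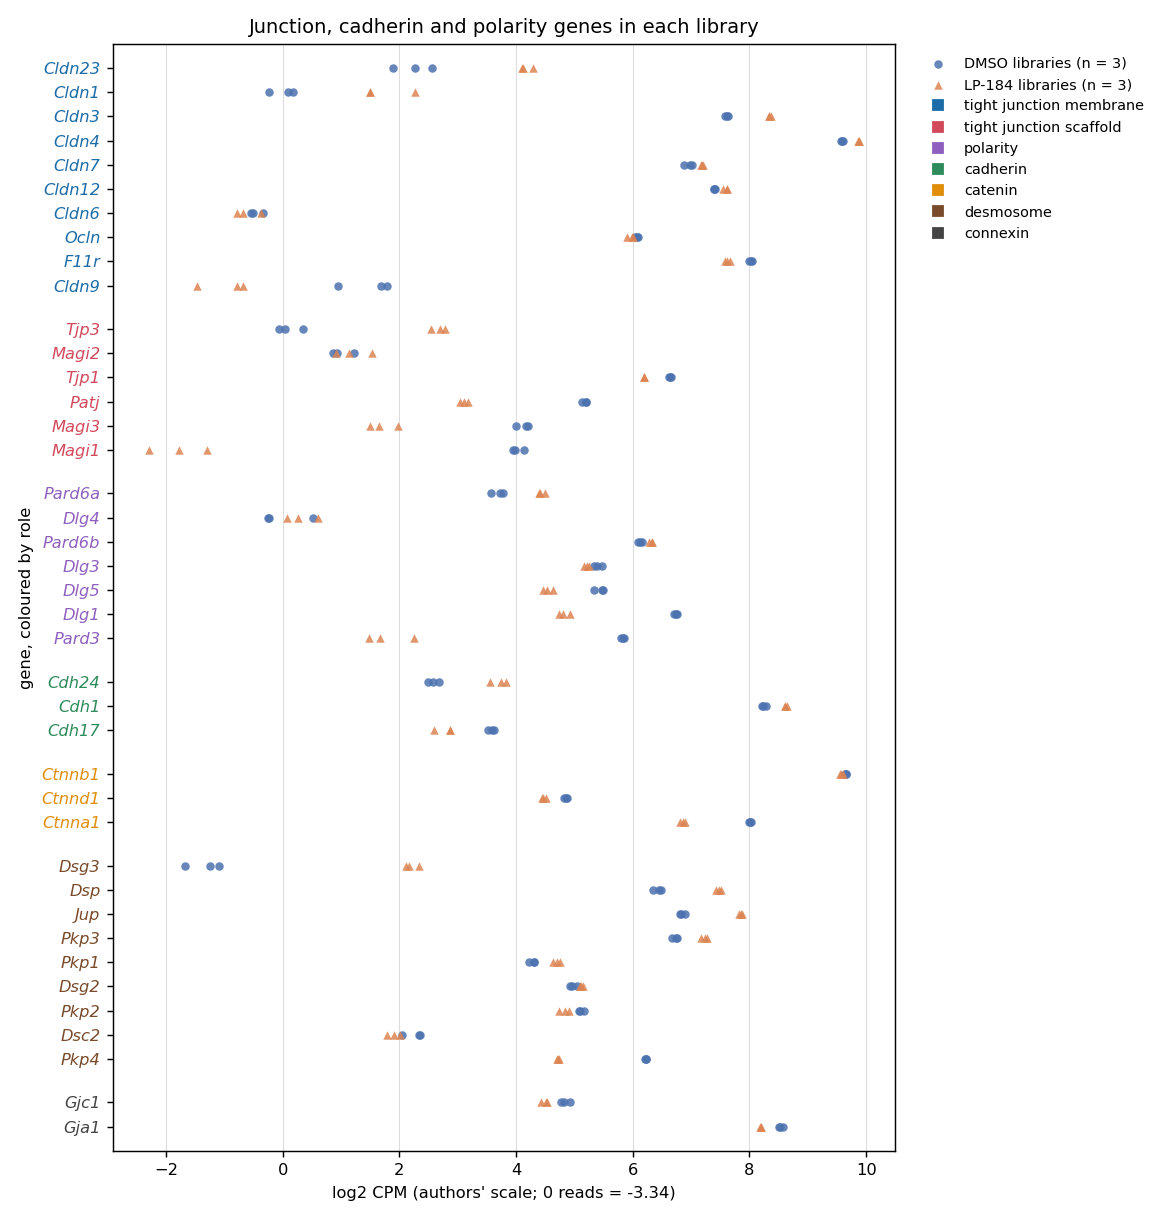
Each point is 1 library's log2 CPM on the authors' scale, where 0 reads is -3.34, for 40 of the genes grouped by role, with circles for DMSO and triangles for LP-184 (n = 3 each). Magi1 and Pard3 lie far lower in LP-184, Dsg3 starts near the bottom of the scale and lies higher, and abundant genes such as Cldn4 and Cdh1 move little.

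Among the tight junction membrane proteins, 6 of 9 genes tested rose and 3 fell, with a median log2 fold change of 0.23. Cldn3 and Cldn4, claudins of secretory and mammary epithelia, lie 39.3 kb apart on chromosome 5 and are among the shortest genes of the set. Cldn3 (chr5:134986214-134987472, GRCm38, + strand) was at 192, 199 and 196 CPM in DMSO and at 329, 324 and 323 CPM in LP-184. Every LP-184 library was above every DMSO library, and Cldn3 rose by 0.74 ± 0.03 (SE) on the log2 scale (adjusted p = 2.2e-23). Cldn4 (chr5:134945119-134946934, - strand), the most abundant gene of this class, was at 765, 756 and 782 CPM in DMSO and 941, 931 and 944 in LP-184. The groups again did not overlap, but the rise was smaller, 0.29 ± 0.02 (adjusted p = 7.4e-16).

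The 250 bases before the RefSeq start (GRCm38.p6) of these neighbours, which rose by different amounts, are printed 5′ to 3′ on the gene's own strand. Capitals mark matches, on either strand, to GGGCGG (the GC box), CAGGTG (the E-box bound by Snail and Zeb proteins) and TGANTCA (the AP-1 motif). Cldn3 is chr5:134985964-134986213 (+) and Cldn4 is chr5:134946935-134947184 (-).
Cldn3: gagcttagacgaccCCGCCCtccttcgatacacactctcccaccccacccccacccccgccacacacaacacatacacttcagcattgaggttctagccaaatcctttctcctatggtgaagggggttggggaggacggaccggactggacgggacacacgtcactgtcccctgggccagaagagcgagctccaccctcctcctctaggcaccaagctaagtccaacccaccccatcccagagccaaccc
Cldn4: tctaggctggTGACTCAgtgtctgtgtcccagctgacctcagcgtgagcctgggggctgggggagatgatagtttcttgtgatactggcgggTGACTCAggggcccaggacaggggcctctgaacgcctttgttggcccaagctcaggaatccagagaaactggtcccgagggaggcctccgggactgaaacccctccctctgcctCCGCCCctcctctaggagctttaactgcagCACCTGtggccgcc
The 250 bases of Cldn3 held 1 GC box and those of Cldn4 held 1 GC box, 1 CAGGTG and 2 TGANTCA matches. The 50 bases after the start, which are not printed, held a CAGGTG in both genes, and a further GC box of Cldn4 crosses the start. A match is a run of letters and was not tested for binding.

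Cldn23 and Cldn1 rose most in this class, from low levels. Cldn23 was at 3.59, 5.78 and 4.71 CPM in DMSO and 17.0, 17.2 and 19.4 in LP-184, a rise of 1.93 ± 0.14 (adjusted p = 8.8e-15). Cldn1, a barrier-forming claudin of skin and other epithelia, was at 0.966, 1.03 and 0.749 CPM in DMSO and 2.72, 4.69 and 2.72 in LP-184. All Cldn1 libraries of LP-184 were above those of DMSO, with 1 of them well above the others (1.74 ± 0.27, adjusted p = 5.5e-07). Cldn7, another common epithelial claudin, was at 130, 126 and 117 CPM in DMSO and 145, 144 and 148 in LP-184 (0.23 ± 0.04, adjusted p = 6.2e-07). Cldn12 rose by 0.20 ± 0.03.

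Cldn9, F11r and Ocln fell. Cldn9 had 34, 72 and 58 reads in DMSO (1.82, 3.36 and 3.10 CPM) and 6, 10 and 10 reads in LP-184 (0.263, 0.479 and 0.524 CPM). The groups did not overlap, and the log2 fold change was -2.45 ± 0.33 (adjusted p = 3.5e-08). F11r, an immunoglobulin-type adhesion protein of the tight junction, was at 265, 255 and 260 CPM in DMSO and 196, 202 and 190 in LP-184 (-0.41 ± 0.03, adjusted p = 5.1e-15). Occludin (Ocln) was at 67.6, 68.0 and 65.6 CPM in DMSO and 59.6, 64.0 and 63.1 in LP-184, groups that came close to each other without overlap. Its log2 fold change of -0.11 ± 0.05 (adjusted p = 0.031) lost its call without DMSO replicate 1 (adjusted p = 0.069), without DMSO replicate 2 (0.089), without LP-184 replicate 1 (0.16), without the variance trend (0.057) or with median centring (0.69).

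Of the scaffolds beneath the membrane, 5 of 7 fell, 1 rose and 1 did not pass the test, with a median of -0.45. Magi1, a scaffold with PDZ domains that binds junction proteins, had the largest fall of the set. It had 286, 374 and 292 reads in DMSO (15.3, 17.4 and 15.6 CPM) and 7, 4 and 2 reads in LP-184 (0.307, 0.192 and 0.105 CPM). No LP-184 library came near a DMSO library, and the log2 fold change was -5.81 ± 0.26 (adjusted p = 9.8e-21). Its relative Magi3 was at 15.9, 17.9 and 18.2 CPM in DMSO and 2.72, 3.83 and 3.04 in LP-184 (-2.42 ± 0.14, adjusted p = 3.8e-17). Patj, the scaffold of the Crumbs complex, was at 35.1, 36.7 and 36.6 CPM in DMSO and 8.15, 8.91 and 8.49 in LP-184 (-2.07 ± 0.09, adjusted p = 2.0e-21). In both genes all LP-184 libraries lay far below the DMSO libraries.

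The Tjp genes encode the zonula occludens proteins, which tie claudins and occludin to actin, and 2 of them are given. Tjp1 was at 101, 99.9 and 98.9 CPM in DMSO and 73.4, 73.3 and 73.2 in LP-184 (-0.45 ± 0.04, adjusted p = 1.2e-12). Tjp3 went up: it had 22, 20 and 16 reads in DMSO (1.18, 0.932 and 0.856 CPM) and 145, 119 and 130 reads in LP-184 (6.35, 5.70 and 6.81 CPM). The Tjp3 groups lay far apart, with a log2 fold change of 2.56 ± 0.22 (adjusted p = 1.3e-12). Tjp3 shares 40 exon bases, 1.08% of its exon length, with Apba3 on the opposite strand, which went from 25.2 to 55.2 CPM. The sources used here do not say whether the counting used strand, and without strand the reads of those bases cannot be told apart. Magi2 overlapped between groups, at 1.72, 1.82 and 2.25 CPM against 1.80, 2.78 and 2.10 (0.18 ± 0.25, adjusted p = 0.50).

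Of the polarity genes, 4 of 7 fell, 2 rose and 1 did not pass the test, with a median of -0.19. Pard3, the scaffold of the Par complex (chr8:127063893-127612286, + strand), had 1076, 1224 and 1035 reads in DMSO (57.7, 57.0 and 55.4 CPM) and 106, 56 and 59 reads in LP-184 (4.64, 2.68 and 3.09 CPM). No LP-184 library came near the DMSO libraries, and the log2 fold change was -4.03 ± 0.13 (adjusted p = 3.9e-25). Its binding partners, the Par6 proteins, did not fall: Pard6a was at 13.1, 13.6 and 11.8 CPM in DMSO and 21.1, 20.8 and 22.6 in LP-184 (0.74 ± 0.09, adjusted p = 5.4e-09). Pard6b, the most abundant polarity gene per length, was at 71.2, 69.7 and 67.7 CPM in DMSO and 80.2, 80.1 and 77.6 in LP-184 (0.19 ± 0.04, adjusted p = 1.3e-04). Both Par6 genes had higher values in every LP-184 library.

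Dlg1, the Discs large protein of the lateral membrane (chr16:31663443-31875129, + strand), was at 104, 107 and 109 CPM in DMSO and 26.5, 27.9 and 30.3 in LP-184. These groups were well apart, with a log2 fold change of -1.91 ± 0.05 (adjusted p = 6.1e-27). Dlg5 was at 40.4, 44.7 and 44.4 CPM in DMSO and 21.8, 24.6 and 23.0 in LP-184 (-0.90 ± 0.07, adjusted p = 2.2e-14). Dlg3 fell by 0.19 ± 0.06 (adjusted p = 0.0042), a call lost with median centring (0.11), and Dlg4, at 0.746 to 1.34 CPM in DMSO and 0.958 to 1.41 in LP-184, overlapped between groups (0.30 ± 0.33, adjusted p = 0.42).

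**Figure D2:**
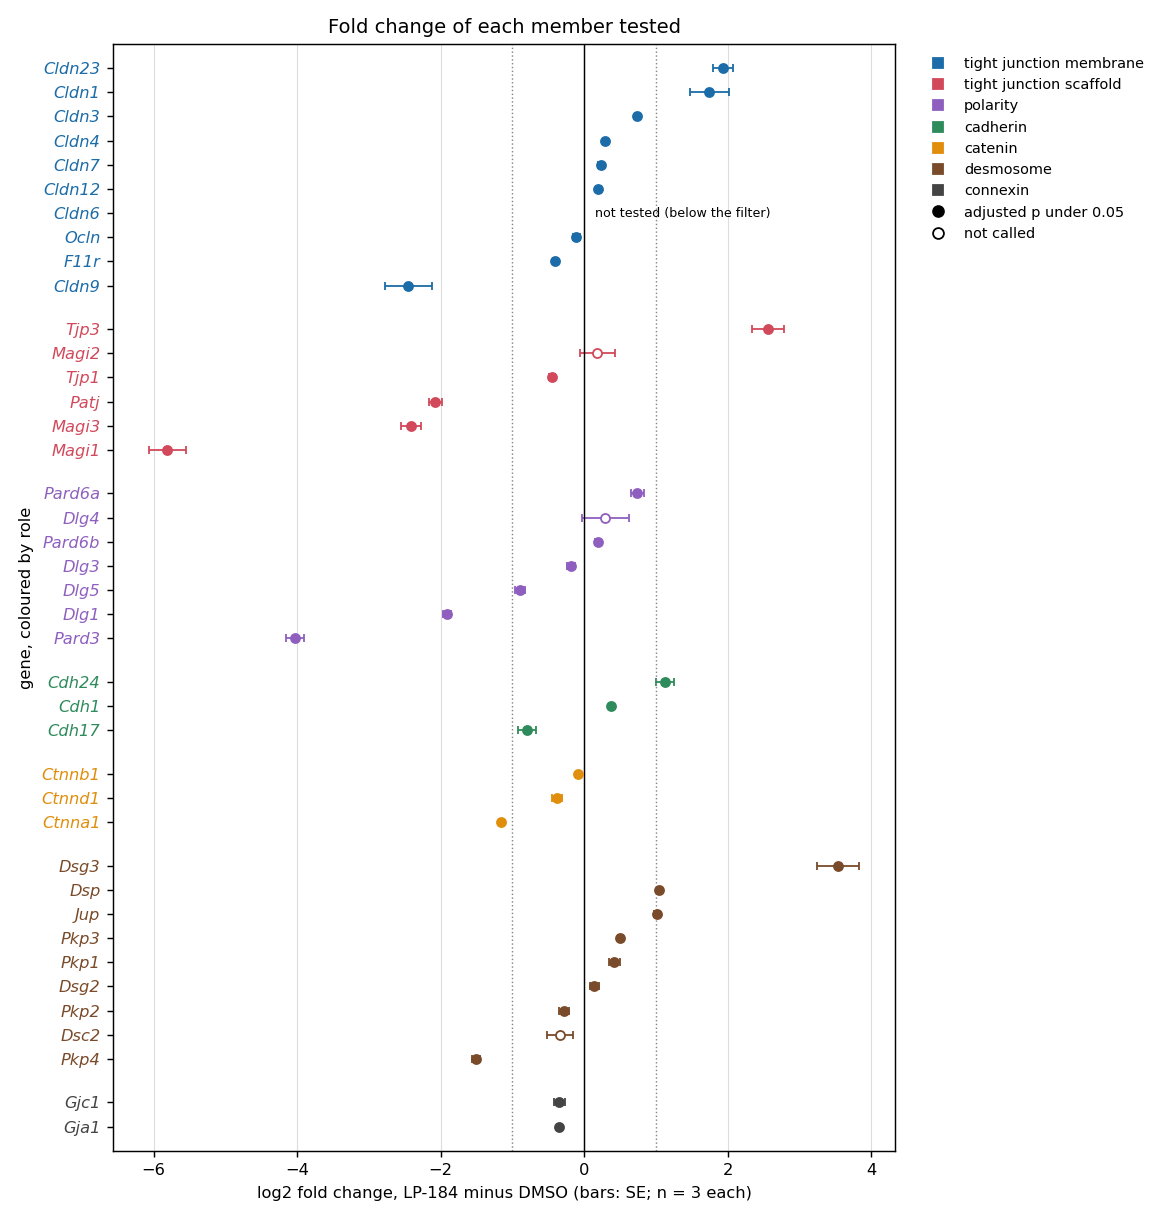
Points are log2 fold changes of LP-184 minus DMSO with SE bars for 39 of the genes tested, grouped by role; filled points passed the threshold, open points did not, and dotted lines mark a 2-fold change. Falls beyond 2-fold lie mostly among scaffolds and polarity genes, from Magi1 at -5.81 and Pard3 at -4.03, and rises beyond 2-fold include Dsg3 at 3.54 and Tjp3 at 2.56.

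At the adherens junction, 2 of 3 cadherins rose and all 3 catenins fell as measured, 1 of them (Ctnnb1) on the deposited scaling only. E-cadherin (Cdh1, chr8:106603351-106670246, + strand) was at 298, 313 and 299 CPM in DMSO and 391, 399 and 391 in LP-184. Every LP-184 library was higher, by 0.38 ± 0.02 on the log2 scale (adjusted p = 7.9e-16). Alpha-catenin (Ctnna1), which links the complex to actin, was at 259, 260 and 254 CPM in DMSO and 116, 119 and 112 in LP-184. The groups were far apart, with a log2 fold change of -1.16 ± 0.03 (adjusted p = 3.6e-27).

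Beta-catenin (Ctnnb1), which joins E-cadherin to alpha-catenin and also carries Wnt signals, was the most abundant catenin, at 799, 810 and 805 CPM in DMSO and 759, 746 and 776 in LP-184. Its log2 fold change of -0.08 ± 0.02 (adjusted p = 3.1e-04) turned to 0.01 with median centring and to 0.0043 with quantile normalization. Ulk4 on the opposite strand covers 14.6% of its exon bases and fell by 1.95, from a mean of 4.53 CPM in DMSO to 1.09 in LP-184. Delta-catenin (Ctnnd1), which holds E-cadherin at the surface, was at 28.2, 29.3 and 28.8 CPM in DMSO and 22.8, 21.6 and 21.9 in LP-184 (-0.38 ± 0.07, adjusted p = 1.1e-05). The predicted gene Gm28635 covers 61.2% of Ctnnd1 exon bases on the same strand, so the level of Ctnnd1 depends on how shared reads were counted.

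The other cadherins were low. Cdh24 was at 6.33, 5.55 and 5.83 CPM in DMSO and 13.3, 14.2 and 11.6 in LP-184 (1.13 ± 0.13, adjusted p = 6.8e-10). Cdh17, the liver-intestine cadherin, was at 11.9, 11.4 and 12.1 CPM in DMSO and 7.18, 7.23 and 5.92 in LP-184 (-0.80 ± 0.13, adjusted p = 6.4e-07). Neither pair of groups overlapped.

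Desmosome genes had the highest median of the 7 classes, 0.42: 6 of 9 rose, 2 fell and 1 did not pass the test. Desmoplakin (Dsp, chr13:38151294-38198577, + strand), the protein that binds keratin filaments, was at 89.4, 81.5 and 87.3 CPM in DMSO and 179, 172 and 183 in LP-184. Plakoglobin (Jup, chr11:100368958-100397763, - strand), which binds desmosomal cadherins and also E-cadherin, was at 113, 120 and 112 CPM in DMSO and 227, 231 and 235 in LP-184. In both genes the LP-184 libraries stood clear of the DMSO libraries, with rises of 1.05 ± 0.04 for Dsp (adjusted p = 1.8e-23) and 1.01 ± 0.03 for Jup (adjusted p = 7.4e-25).

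The promoter windows of these partners, which rose by similar amounts, are shown in the same way, with capitals for GGGCGG and CCAAT (the CCAAT box) on either strand. Dsp is chr13:38151044-38151293 (+) and Jup is chr11:100397791-100398040 (-).
Dsp: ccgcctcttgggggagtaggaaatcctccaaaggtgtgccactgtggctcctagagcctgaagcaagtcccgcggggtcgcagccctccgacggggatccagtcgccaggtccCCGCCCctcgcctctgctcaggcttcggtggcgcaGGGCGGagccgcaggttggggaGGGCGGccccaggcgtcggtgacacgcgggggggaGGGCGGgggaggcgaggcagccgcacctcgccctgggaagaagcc
Jup: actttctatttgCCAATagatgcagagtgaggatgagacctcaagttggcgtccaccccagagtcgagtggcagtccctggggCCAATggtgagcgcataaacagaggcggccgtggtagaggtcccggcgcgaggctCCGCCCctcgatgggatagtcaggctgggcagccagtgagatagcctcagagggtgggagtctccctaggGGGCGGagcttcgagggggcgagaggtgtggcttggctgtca
The printed bases of Dsp held 4 GC boxes and no CCAAT match, with 22 CpG dinucleotides and 72.4% G or C. Those of Jup held 2 GC boxes and 2 CCAAT matches, with 13 CpG dinucleotides and 62.0% G or C.

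Among the plakophilins, which sit between cadherin and desmoplakin, Pkp3 was the most abundant desmosome gene per length, at 103, 107 and 108 CPM in DMSO and 154, 144 and 152 in LP-184 (0.50 ± 0.04, adjusted p = 5.9e-15). Pkp1 rose by 0.42 ± 0.08 and Pkp2 fell by 0.28 ± 0.07. Pkp4, a relative of delta-catenin, was at 74.7, 73.7 and 75.2 CPM in DMSO and 25.8, 26.3 and 26.5 in LP-184. The Pkp4 groups were tight and far apart, with a log2 fold change of -1.51 ± 0.05 (adjusted p = 1.2e-23).

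The desmosomal cadherins differed among themselves. Dsg3, a desmoglein of stratified epithelia, had 6, 8 and 4 reads in DMSO (0.322, 0.373 and 0.214 CPM) and 100, 88 and 94 reads in LP-184 (4.38, 4.22 and 4.93 CPM). No library of LP-184 came near the DMSO libraries, and the log2 fold change was 3.54 ± 0.30 (adjusted p = 5.3e-13). Its neighbour Dsg2, the desmoglein of simple epithelia, 10.6 kb away on chromosome 18, was at 31.1, 33.0 and 30.2 CPM in DMSO and 35.3, 34.0 and 34.5 in LP-184. The Dsg2 value of 0.14 ± 0.06 passed the threshold narrowly (adjusted p = 0.045). It did not pass without DMSO replicate 1 (0.088) or 3 (0.15), or without LP-184 replicate 1 (0.11), 2 (0.052) or 3 (0.077), nor with the replicate number as a block (0.058). Dsc2, a desmocollin, was at 5.04, 4.01 and 4.92 CPM in DMSO and 3.94, 3.64 and 3.35 in LP-184 and did not pass (-0.34 ± 0.18, adjusted p = 0.082), though it passed without DMSO replicate 2 (0.044). Of 4 keratinocyte-like markers only Krt10 was in the table, at 5.51 to 6.66 CPM in DMSO and 4.17 to 4.82 in LP-184. Krt10 was called lower (-0.41 ± 0.16, adjusted p = 0.023). Other genes of stratified epithelia, chosen after their values were seen, rose: the basal keratin Krt14 by 1.46 ± 0.12, envoplakin (Evpl) by 1.09 ± 0.16 and periplakin (Ppl) by 0.33 ± 0.06. Their part in the Dsg3 value was not tested.

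Among the connexins, Gja1 and Gjc1 fell. Gja1, the most widespread connexin, was at 381, 366 and 366 CPM in DMSO and 289, 293 and 292 in LP-184 (-0.35 ± 0.02, adjusted p = 6.2e-15). Gjc1 was at 27.1, 30.2 and 28.1 CPM in DMSO and 21.5, 22.8 and 22.9 in LP-184 (-0.35 ± 0.07, adjusted p = 6.4e-05). Neither gene overlapped between groups.

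Levels can be compared between genes only per length, as CPM per kb of annotated exon. On this scale the tight junction membrane class summed to 800 ± 4.27 (SD, n = 3) in DMSO and 995 ± 4.53 in LP-184. Cldn4 held 52.8% of the first sum and 51.9% of the second, and Cldn3 held 19.4% and 26.0%. Tight junction scaffolds summed to 47.3 ± 1.14 and 32.7 ± 0.713, so the summed RNA level of the membrane class was above that of the scaffold class in both groups. Magi1 contributed 1.52 ± 0.11 CPM per kb in DMSO, so the gene with the largest fall was a minor part of its class.

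On this scale, summed RNA of the adherens junction genes rose for cadherins and fell for catenins. Cadherins summed to 70.6 ± 1.64 CPM per kb in DMSO and 91.3 ± 1.37 in LP-184, nearly all of it Cdh1 (93.9% and 94.3%). Catenins summed to 199 ± 1.24 and 167 ± 2.39, within which Ctnnb1 went from 77.9% to 87.5% and Ctnna1 from 20.2% to 10.8%. This sum and its shares include Ctnnd1, whose level depends on how reads shared with Gm28635 were counted. Desmosome genes summed to 84.1 ± 0.898 and 116 ± 2.12 CPM per kb, with Jup going from 21.2% to 30.9% and Dsp from 10.6% to 15.8% of the sum. Polarity genes summed to 54.8 ± 1.07 and 48.9 ± 0.484. The per-library ranges of these sums did not overlap between groups in any of the 7 classes. Exon length covers all annotated transcripts of a gene, so levels per length depend on the annotation.

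**Figure D3:**
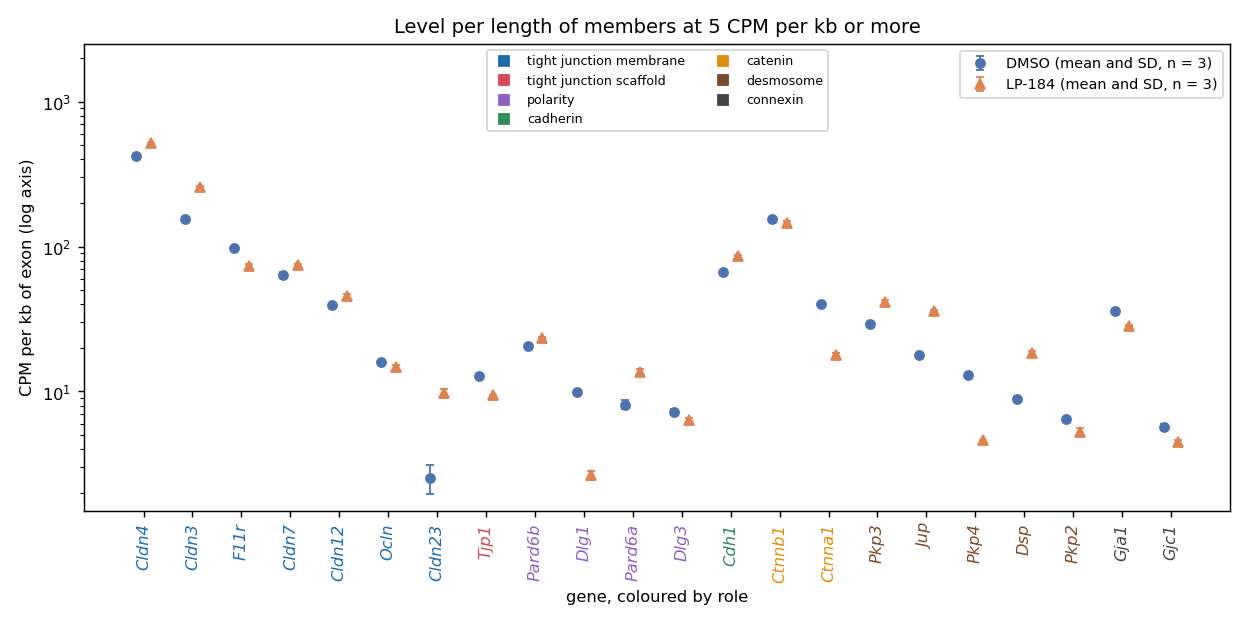
Circles (DMSO) and triangles (LP-184) give the mean CPM per kb of exon with SD bars (n = 3 each) on a log axis, for genes at 5 CPM per kb or more on average over the 2 groups. Cldn4 is highest in both groups, and Cldn3, Cdh1, Jup, Dsp and Cldn23 lie higher in LP-184, whereas Ctnna1, Pkp4 and Dlg1 lie lower.

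The genes that fell most were long. The span from first to last annotated exon had a median of 209 kb over the 8 genes lower by 2-fold or more, 16.8 kb over the 8 higher by 2-fold or more, and 30.6 kb over the other 27. Of 11 genes of 100 kb or more, 10 fell and 0 rose, and their median was -1.51 on the log2 scale. The exception was Magi2, the longest at 1478 kb. Over all 1320 tested genes of that span, 90.5% fell and 4.02% rose, with a median of -1.41, so long junction genes were near the level of other long genes. Of 9 junction genes under 10 kb, 6 rose and 2 fell (median 0.29), where 49.6% of all 3253 genes rose and 21.7% fell (median 0.24).

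Across the 43 genes, Spearman's rho of fold change with span was -0.60 (Pearson's r with log10 span -0.50), and across 11531 genes it was -0.49 (-0.48). These are descriptions across genes of the same 6 libraries, and genes are not independent replicates. Cldn9 stood apart, since it fell by 2.45 with a span of 1.44 kb. Among genes of 30 to 100 kb, Dsg3, Dsp, Pkp1, Cdh1 and Dsg2 rose, 5 of 12, where 23.6% of all genes of that span did.

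**Figure D4:**
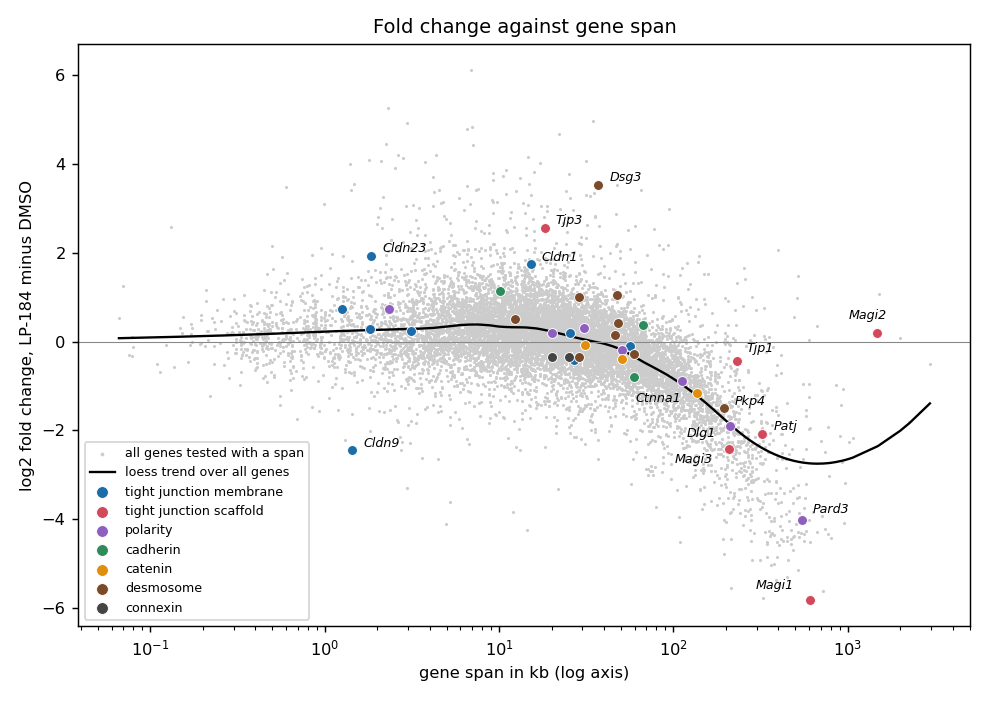
Log2 fold change (LP-184 minus DMSO) is plotted against gene span in kb on a log axis, with tested genes in grey and 39 of the junction genes coloured by role. The curve is the smoothed trend over all genes; Magi1 and Pard3 lie at the lower right, Magi2 far above the curve at 1478 kb, and Cldn9 alone at the lower left.

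When the smoothed length trend of all genes was subtracted, 21 junction genes were higher, 13 lower and 9 did not pass. Magi1 (-3.07), Pard3 (-1.31), Magi3 (-0.58) and Cldn9 (-2.70) still fell. Ctnna1 (0.06), Dlg5 (0.07), Pkp2 (0.05), Dlg1 (-0.05) and Dlg3 were near 0 and lost their calls. Tjp1 (1.55), Patj (0.33), Pkp4 (0.23) and Ocln (0.18) had fallen as measured but lay above genes of like annotated span. Cdh1 (0.83) and Dsp (1.19) lay further above the trend than their measured rise, while Cldn4 (0.03), Cldn7 (-0.06) and Pard6b (-0.03) lost their calls. Cldn3 (0.50), Jup (0.94), Dsg3 (3.56) and Tjp3 (2.30) kept theirs.

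The span is that of the annotated gene, not of the transcript in use. For Tjp1 it was 232 kb, but 75.1 kb from the outermost RefSeq start to the gene end. For Magi1 these lengths were 608 and 238 kb. The values of both genes after removal of the trend depend on this choice and were not recomputed with the shorter length. 7 tested genes reach 1000 kb, so the trend at Magi2 (2.54 after removal) is thinly supported.

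**Figure D5:**
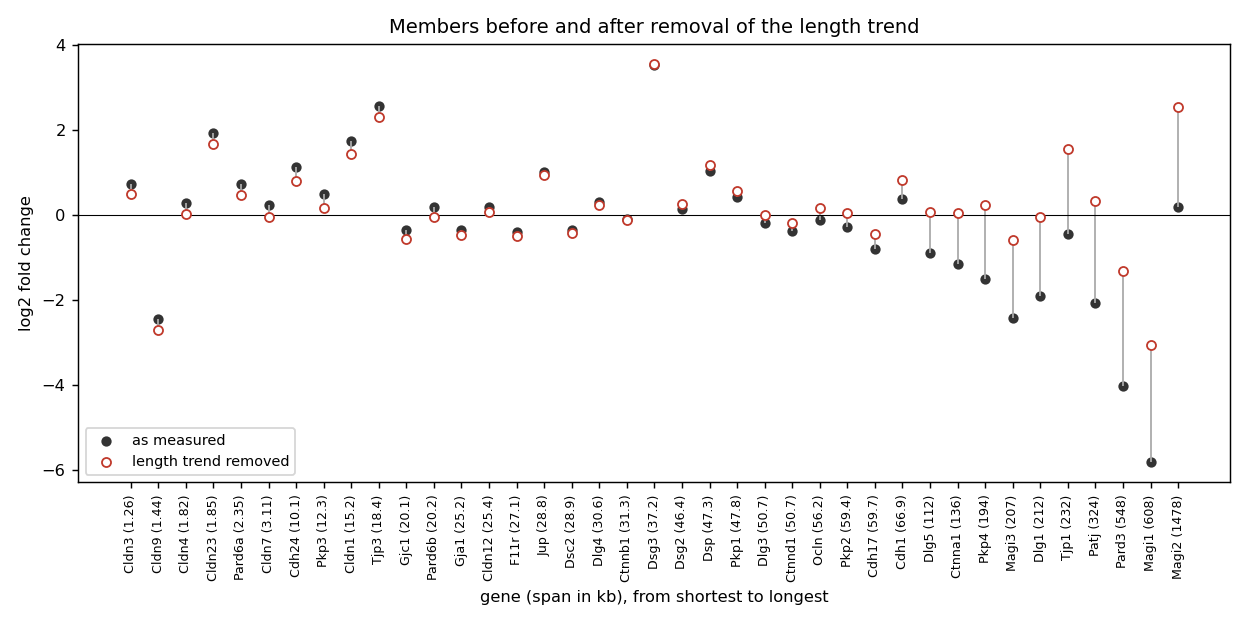
For 39 of the genes tested, ordered by span in kb, the filled point is the measured log2 fold change and the open point the value after the length trend of all genes was subtracted. Genes under 100 kb move little, and the long genes at the right move up, Tjp1 from -0.45 to 1.55, Patj from -2.07 to 0.33 and Magi2 from 0.18 to 2.54.

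RefSeq promoters were found for 28 of the 44 genes, 48 windows in all. CAGGTG was in 39.6% of these windows (19 of 48, from 17 genes), in 20.2% of all 32851 promoter windows and in 17.9% of the 11366 windows of tested genes. CANNTG, which includes it, was in 70.8%, 72.3% and 62.8%. GGGCGG was in 62.5%, 35.7% and 64.1%, CCAAT in 41.7%, 37.4% and 38.1%, TGANTCA in 8.33%, 7.81% and 5.26%, and TATAAA (the TATA box) in 8.33%, 13.6% and 6.84%. The windows run 250 bases before to 50 after each start, and both strands were searched. Several windows belong to 1 gene and can overlap, so these shares are descriptions.

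Genes outside the set that act with these proteins were counted from 6 lists, to be read beside the 38.3% of all genes that rose and the 40.0% that fell. Of the regulators of E-cadherin transcription, 7 of 15 tested rose (46.7%), 3 fell and 5 did not pass, with a median of 0.15. Grhl3, a grainyhead factor of epithelial identity, went from 0.263 ± 0.184 to 3.19 ± 0.527 CPM (SD, n = 3), a rise of 3.30 ± 0.36 (adjusted p = 3.1e-10). Zeb2, a repressor of Cdh1, went from 8.99 ± 1.14 to 1.03 ± 0.187 CPM (-3.01 ± 0.21, adjusted p = 2.7e-15). Others of the list, chosen after their values were seen, moved the other way: the repressors Snai1 (0.79 ± 0.09, adjusted p = 2.3e-09) and Tcf3 (0.57 ± 0.04, adjusted p = 2.0e-16) rose, and Grhl2, a grainyhead factor that activates Cdh1, fell (-0.40 ± 0.06, adjusted p = 3.9e-07). By 2-fold or more, 4 of these regulators rose: Grhl3, Elf3 (2.77), Ovol1 (2.07) and Klf4 (1.68). Zeb2 and Tcf4 (-1.10) were the 2 that fell by as much. Of nectins and other junction membrane proteins, 8 of 12 rose (66.7%) and 3 fell. The JAM genes of that list were not among those tested. The tricellular junction protein Marveld2 rose by 0.96 ± 0.06 and Nectin3, an adhesion protein of adherens junctions, fell by 1.52 ± 0.06.

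Of plaque and actin linkers, 10 of 19 rose (52.6%) and 8 fell (42.1%, near the 40.0% of all genes), with Amotl2, an angiomotin, up by 1.28 ± 0.04 and the actin-binding Ablim1 (-2.61 ± 0.10) down. Of polarity partners, 7 of 19 rose (36.8%) and 11 fell (57.9%). The median span of the list was 81.7 kb, and of all genes of 30 to 100 kb 23.6% rose and 56.0% fell. Llgl2, a lateral polarity protein, rose by 0.97 ± 0.06, and Tiam1, an exchange factor for Rac, fell by 2.07 ± 0.10. Of beta-catenin destruction complex and feedback genes, 2 of 16 rose (12.5%) and 10 fell (62.5%), with a median of -0.44 and a median span of 65.0 kb, beside the same 56.0% of genes of 30 to 100 kb that fell. The kinase gene Gsk3a rose by 0.76 ± 0.05. Btrc, the F-box protein that marks beta-catenin for destruction, went from 23.1 ± 1.48 to 4.18 ± 0.512 CPM (-2.44 ± 0.12, adjusted p = 3.3e-19). Nectin3 (111 kb), Zeb2 (134 kb), Btrc (166 kb), Ablim1 (282 kb) and Tiam1 (357 kb), named here for their falls, are long genes. After removal of the length trend they were at -0.57, -1.82, -0.95, -0.36 and 0.42, in the same order.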

How the data were processed

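Values were deposited by the authors as log2 CPM (reads scaled to library size, on a log2 scale) by gene symbol. Columns named as control were matched by number to the DMSO libraries. Builds mm10 and hg38 and the tools edgeR, featureCounts, fastp, Subread 2.0 and STAR 2.7 stand in the submitters' processing notes, with no roles. Annotation and strand setting are not given in the sources used. Reads and CPM were recovered from the log2 values, since after removal of the prior (0 reads is -3.34) 100% came out as whole reads (tolerance 1e-06). Recovered reads sum to 18864368 to 22471753 per library.

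Tested genes reached a log2 CPM of 0 in 3 or more libraries. The test was a two-sided comparison with limma 3.58.1 in R 4.3.3 (2 groups, empirical Bayes moderation with a trend of variance on level). Benjamini-Hochberg adjustment ran over all 11931 tested genes, with a threshold of 0.05. Differences are LP-184 minus DMSO in the deposited log2 values, in which the prior makes changes of low genes smaller. In the authors' deposited table of adjusted p-values and log2 fold changes, whose test is not stated, 42 of 43 junction genes had the same call and direction; Dsg2 differed.

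Spans, exon lengths and coordinates (1-based) come from GENCODE for GRCm38, matched by symbol for 12207 of 12656 genes (96.5%), and promoters from RefSeq for GRCm38.p6. The length trend was fitted by loess (smoothing parameter 0.3) to fold changes against the log10 of gene span. Always named were 17 genes, then in each of 7 role classes the 3 largest called changes and the highest level per length, and in each related list the largest called rise and fall. Other junction genes are given to complete their class, and 4 genes that enter the counts and sums are not reported by name. The genes, lists, rule and length alternative were chosen with earlier results of these data known.

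Results were recomputed without each library, without the filter or with a higher one (log2 CPM of 2), after quantile normalization or median centring, with log2(CPM + 0.1) or log2(CPM + 1), without the variance trend, with a replicate block, with voom on recovered reads, and after removal of the length trend. The test was run on counts simulated for the LP-184 comparison (11862 genes tested). It called 87.9% of 99 genes changed 1.5-fold, 92.0% of 50 at 2-fold and 100% of 49 at 4-fold with the right sign. Unchanged genes made up 3.70% of its calls. Changes were put only in genes above a minimum of reads, with the same dispersion for every gene and no length trend. Far fewer genes changed than were called here, so these rates do not carry over to genes with few reads or to these calls. Figures used Python 3.11.15 and matplotlib 3.10.9. The study's human cells and single-cell libraries were left out.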

Additional observations from a re-analysis of the deposited data

How the results depend on the processing

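Over 16 alternatives, 16 to 21 junction genes were higher and 13 to 21 lower. Leaving out 1 library gave 17 to 18 higher and 20 to 21 lower, 7 to 8 higher by 2-fold or more and 8 lower by 2-fold or more. Jup, at 1.01, went just under 2-fold without DMSO replicate 1 or 3 or LP-184 replicate 3. Removal of the length trend left 13 lower and 3 lower by 2-fold or more, since it subtracts the fall shared by long genes. Among the genes named in the text it reversed the sign of Cldn7 (-0.055), Ctnna1 (0.056), Dlg5 (0.067), Ocln (0.18), Pard6b (-0.034), Pkp4 (0.23), Tjp1 (1.55), Pkp2 (0.053), Dlg3 (5.8e-05) and Patj (0.33). Ctnnb1 reversed to 0.0054 with median centring and 0.0043 with quantile normalization, and its call was lost without the variance trend. With the replicate number as a block, 17 were higher and 21 lower, and only Dsg2 lost its call among the 39 called. The numbers did not pair the libraries (correlations of deviations -0.011, -0.018 and -0.0065). At this depth, Magi1, Dsg3, Cldn9, Tjp3 and Cldn1 (18, 22 and 14 reads in DMSO) rest on few reads in 1 group. Magi1 and Cldn9 were under a log2 CPM of 0 in every LP-184 library, and Dsg3 in every DMSO library. These genes thus passed the filter only through the group where they were higher.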

Other observations

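Atypical cadherins and protocadherins lay outside the chosen symbols. Of 13 tested, 3 rose and 8 fell, with a median log2 fold change of -1.02. Within them the protocadherin beta genes, a cluster of short genes encoding neuronal-type adhesion proteins, were chosen after their values were seen. Of 8 in the table, 6 were tested and all 6 fell, 5 of them by 2-fold or more. Their median was -1.15, with a median span of 4.97 kb. Pcdhb14 and Pcdhb18 did not pass the filter. Pcdhb16 and Pcdhb19 passed it only with the DMSO libraries, where they were higher, so the filter favoured a fall for them. Of all genes under 10 kb, 21.7% fell and 2.92% fell by 2-fold or more. Those shares cover genes of all levels, not only genes near the filter. Pcdhb22, the most abundant, was at 6.22, 6.57 and 8.35 CPM in DMSO and 3.50, 3.55 and 2.62 in LP-184 (-1.11 ± 0.18, adjusted p = 8.3e-07). Pcdhb16 was at 2.31, 3.50 and 3.00 CPM against 0.613, 1.05 and 0.838 (-1.71 ± 0.28, adjusted p = 1.4e-06). The LP-184 libraries were below the DMSO libraries for both genes. The copies are close paralogs, so their single values are uncertain where reads could be shared. Pcdhgc3, of the gamma cluster, rose by 0.82 ± 0.09.

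A few long genes of the related lists rose, and these too were chosen after their values were seen. Shroom3 (282 kb), an organiser of apical actin, was at 21.1, 20.9 and 21.0 CPM in DMSO and 40.7, 45.2 and 41.1 in LP-184 (1.01 ± 0.07, adjusted p = 8.5e-16). Lmo7 (205 kb), found at adherens junctions, was at 24.6, 26.7 and 27.1 CPM against 48.7, 51.8 and 48.5 (0.92 ± 0.06, adjusted p = 9.3e-16). Frmd4b (331 kb), which binds the Par complex, was at 1.82, 2.42 and 3.64 CPM against 4.82, 4.55 and 3.77 (0.76 ± 0.22, adjusted p = 0.0020). The first pair stood clear of DMSO in every library, and Frmd4b came close without overlap.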
